A study of Rattus norvegicus with 12 samples.

Results

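The genes described here encode the pore-forming alpha subunits of the voltage-gated sodium channels of the brain: Scn1a (ENSRNOG00000053122), Scn2a (ENSRNOG00000005018), Scn3a (ENSRNOG00000005007) and Scn8a (ENSRNOG00000005309). The members were chosen by these identifiers, and all 4 were found among the 32662 gene identifiers counted. The symbols come with the list of members, since the files pair no identifier with a name. RNA was sequenced in 12 libraries from the CA1 pyramidal layer of the hippocampus, which laser microdissection had divided into a deep and a superficial sublayer. The rats were male Wistar animals, listed in all groups at 45 to 50 days and 180 to 200.0 g. The step of the experiment at which this age and weight held is not given here. The epileptic animals, 3 in number, had received kainate (5 mg/kg, repeated hourly) until status epilepticus set in, then diazepam (4 mg/kg), and were sampled 6 to 8 weeks afterwards with chronic epilepsy. The 3 control animals had received vehicle, which was saline or DMSO, and the same care. Each animal gave 1 deep and 1 superficial library, so each of the 4 groups held 3 libraries. Per the labels, seizures of the epileptic rats were seen during handling or, in some of the animals, by electrophysiological recording.

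Voltage-gated sodium channels carry the inward current of the rising phase of the action potential, and 1 alpha subunit is sufficient to form the channel. In the brain, Scn1a is best known from the firing of inhibitory interneurons and Scn2a from the axons of excitatory neurons. Scn3a is known for high expression before birth, and Scn8a for the axon initial segment and the nodes of Ranvier of mature neurons. Inherited changes in all of these genes are known from human epilepsies, and several antiseizure drugs block the channels they encode.

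In RefSeq's gene table for the assembly GRCr8, Scn3a and Scn2a are immediate neighbours on chromosome 3, with 0 genes between them, and lie on opposite strands with their starts facing each other. Scn1a lies on the same chromosome with 4 protein-coding genes between it and Scn2a, and Scn8a lies on chromosome 7. The sequences before the starts of these genes are shown as description only. Whether the place or the sequence of a gene bears on its level was not tested. RefSeq promoter entries were matched by symbol for 3 of the 4 genes. Each is given from 5′ to 3′ on the strand of its gene, as the 250 bases before 1 annotated start in GRCr8, with every CG dinucleotide in capitals.
Scn2a (chr3:70710706-70710955, plus strand): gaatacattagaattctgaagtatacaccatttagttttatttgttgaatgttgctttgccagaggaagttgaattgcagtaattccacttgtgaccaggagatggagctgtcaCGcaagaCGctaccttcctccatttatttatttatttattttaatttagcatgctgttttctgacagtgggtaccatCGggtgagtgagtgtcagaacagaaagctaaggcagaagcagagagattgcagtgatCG
Scn3a (chr3:70666199-70666448, minus strand): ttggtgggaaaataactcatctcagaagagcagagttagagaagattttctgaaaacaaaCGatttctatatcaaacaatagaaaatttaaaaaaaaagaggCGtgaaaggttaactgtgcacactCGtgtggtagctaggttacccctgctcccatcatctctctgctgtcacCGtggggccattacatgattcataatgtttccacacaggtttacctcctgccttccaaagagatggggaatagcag
Scn8a (chr7:133860977-133861226, plus strand): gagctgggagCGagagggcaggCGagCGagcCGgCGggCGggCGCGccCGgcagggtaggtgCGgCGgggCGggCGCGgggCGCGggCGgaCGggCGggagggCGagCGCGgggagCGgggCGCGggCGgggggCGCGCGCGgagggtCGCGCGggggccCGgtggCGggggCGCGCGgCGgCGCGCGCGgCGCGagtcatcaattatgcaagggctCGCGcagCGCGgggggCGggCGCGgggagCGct

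The Scn2a and Scn3a windows held 4 CG dinucleotides each and had a GC content of 39.6% and 41.6%. The Scn8a window held 53 CG dinucleotides at a GC content of 86.0%. Over 33465 windows of the same length the medians were 5 CG dinucleotides and 51.2% GC, so that the Scn8a window was GC-rich and the other 2 were below the median. The letters GGGCGG, read on both strands, occurred 6 times in the Scn8a window and 0 times in those of Scn2a and Scn3a, and 30.5% of all windows held them. The other motifs were also read on both strands. TATAAA, the core of a TATA box, was in 0 of the 3 windows and in 12.9% of all. CCAAT, the core of the CCAAT box, was in 0 of 3 and in 34.0% of all. CACGTG, an E-box, was in 0 of 3 and in 5.6% of all. These are matches of letters and not measured binding sites.

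Per library, 16135358 to 25893962 counts fell on genes, and the 4 genes together took 0.121 to 0.203% of them. Libraries of epileptic animals 2 and 3 stood apart from the other 8: 22.3 to 26.7% of their alignments were tallied to no feature, that is outside annotated exons or, if strand was used, opposite to them, against 35.8 to 44.0% in the control libraries and 37.7 and 43.0% in epileptic animal 1. Identifiers above 1% of all gene counts took 23.2 to 28.5% of the counts in these 4 libraries and at most 19.6% in the others. Alignments tallied as not unique made up 37.9 to 45.6% of the same total in these 4 libraries and 25.2 to 34.8% in the others. The lower share outside exons is thus not a difference in exon share alone. Levels are given as CPM, counts scaled by the TMM-adjusted library size, and differences as log2 fold changes from edgeR's quasi-likelihood test, with p adjusted over all identifiers tested. As bulk tissue was collected, fewer cells of a type and less RNA per cell cannot be told apart. The deposited files could not be searched for markers of the labelled cell type, because their identifiers carry no names, and no gene lengths of the counting annotation were used, so levels are not compared between genes.

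Scn1a had 1519 to 2432 counts per library. In deep CA1 its level was 94.6, 94.9 and 90.1 CPM in control animals 1, 2 and 3. The epileptic animals 1, 2 and 3 had 110.6, 85.7 and 84.5 CPM there. In superficial CA1 it was 116, 99.6 and 101 CPM in the control and 112, 88.6 and 108 CPM in the epileptic animals. The superficial library was higher than the deep one in each animal, while control and epileptic animals overlapped in both sublayers. In order, the group means were 106 ± 9.23 CPM in superficial control, 103 ± 12.8 in superficial epileptic, 93.6 ± 14.8 in deep epileptic and 93.2 ± 2.68 in deep control libraries (SD, n = 3 each). Of the neighbours in this order, each pair differed by less than its spread.

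Scn2a had 9312 to 17095 counts per library. Deep control libraries held 673, 686 and 623 CPM and deep epileptic libraries 766, 638 and 502 CPM in animals 1, 2 and 3. Superficial control libraries held 784, 724 and 692 CPM and superficial epileptic libraries 794, 645 and 506 CPM. Epileptic animal 1 lay above all controls of its sublayer and epileptic animal 3 below all of them, in deep and superficial CA1 alike. The group means were 733 ± 46.7 CPM in superficial control, 661 ± 33.2 in deep control, 649 ± 144 in superficial epileptic and 636 ± 132 in deep epileptic libraries (SD, n = 3 each). Only the first and second of these, the control sublayers, had ranges that did not overlap. The ranges of the other neighbours overlapped. How large a share of all identifiers has such a gap between control sublayers was not counted.

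Scn3a had 1468 to 2538 counts per library, so the subunit known for its high expression before birth was counted in all libraries of these postnatal rats. Its deep level was 106, 100.0 and 98.6 CPM in control and 121, 95.7 and 79.2 CPM in epileptic animals 1, 2 and 3. Its superficial level was 108, 107 and 103 CPM in control and 118, 93.4 and 81.0 CPM in epileptic animals. As for Scn2a, epileptic animal 1 was above all controls of its sublayer in both sublayers, and animal 3 was below. Epileptic animal 2 was below all of them for Scn3a in both sublayers. The means were 106 ± 2.50 CPM in superficial control, 101 ± 3.93 in deep control, 98.6 ± 21.1 in deep epileptic and 97.3 ± 18.6 in superficial epileptic CA1 (SD, n = 3 each), and the ranges of neighbours overlapped throughout.

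Scn8a had 12651 to 18685 counts per library. Deep levels were 805, 764 and 830.4 CPM in control and 737, 625 and 682 CPM in epileptic animals 1, 2 and 3. Superficial levels were 894, 873 and 887 CPM in control and 814, 649 and 661 CPM in epileptic animals. Every epileptic library lay below all control libraries of its sublayer. Scn8a was the single member for which this held, as it did for 9.75% of all identifiers in deep and 13.0% in superficial CA1. The means ran from 885 ± 10.5 CPM in superficial control over 799.7 ± 33.6 in deep control and 708 ± 92.3 in superficial epileptic to 682 ± 56.1 in deep epileptic libraries (SD, n = 3 each). The ranges of the control sublayers did not overlap, and those of the other neighbours in this order did. The share of all identifiers with such a gap between control sublayers was not counted.

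**Figure D1:**
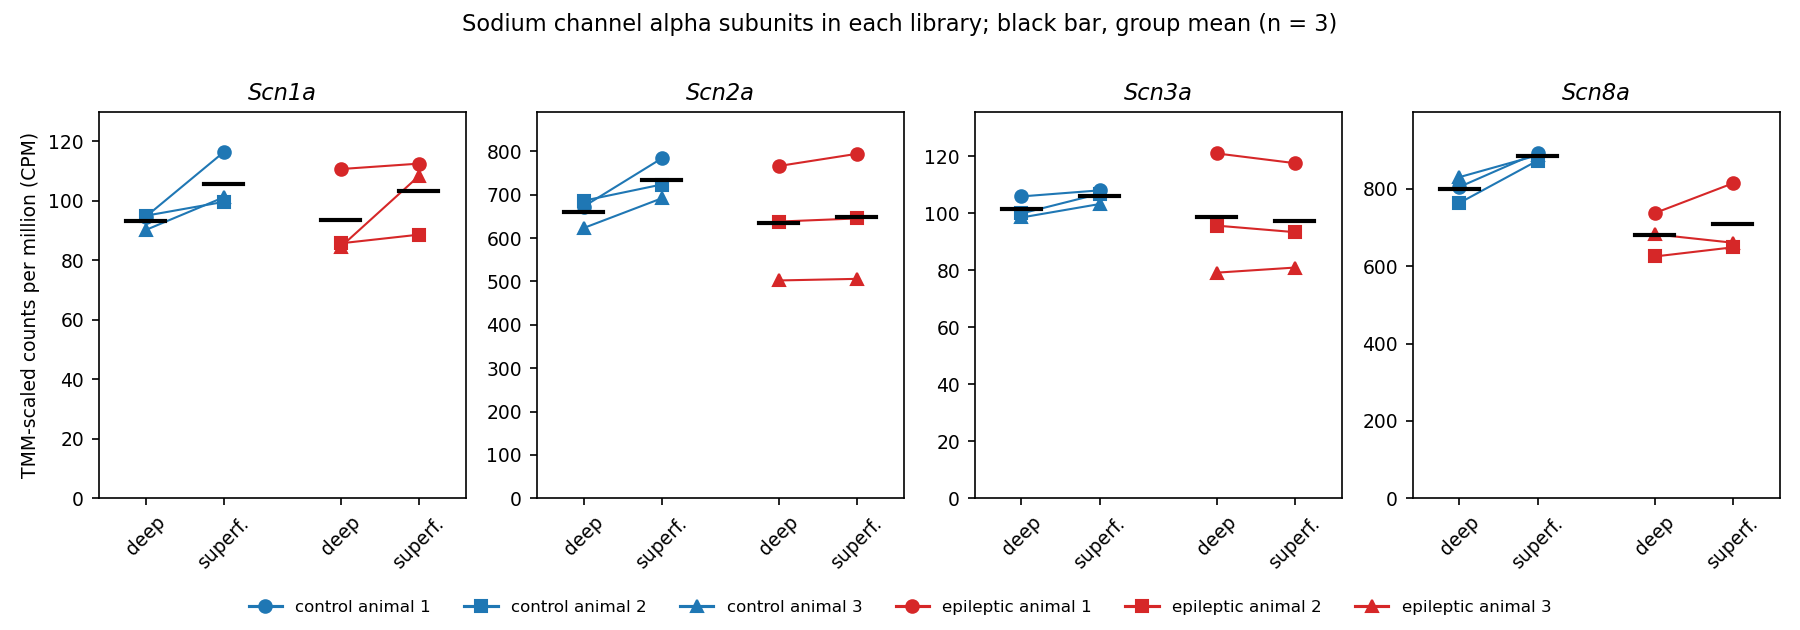
TMM-scaled CPM of Scn1a, Scn2a, Scn3a and Scn8a in the 12 libraries, by sublayer and condition; each line joins the deep and superficial library of 1 animal and black bars are group means. The epileptic Scn8a points, from 625 to 814 CPM, lie below the control points of the same sublayer, while Scn2a and Scn3a of epileptic animals 1 and 3 lie on either side of the controls.

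The sublayer comparison asks whether the superficial and deep sublayers, as dissected tissue, differ in the levels of these genes, and it was made within animals. In control rats all 4 genes had higher fitted levels in superficial CA1, by 13.2% for Scn1a, 10.9% for Scn2a, 4.54% for Scn3a and 10.7% for Scn8a. The log2 fold change was 0.18 for Scn1a (SE 0.07, adjusted p = 0.1242), 0.15 for Scn2a (SE 0.05, adjusted p = 0.06444), 0.06 for Scn3a (SE 0.05, adjusted p = 0.4967) and 0.15 for Scn8a (SE 0.05, adjusted p = 0.08597). By edgeR 0 of 4 passed, against 8.44% of all identifiers, and 3 of 4 lay at an unadjusted p below 0.05, against 22.8%. The members' median log2 fold change was 0.15, and that of all identifiers 0.01. DESeq2 also called 0 of 4, as did limma-voom with animals as random effects, with 815 and 689 identifiers called. Limma-voom with sample quality weights instead called Scn1a, Scn2a and Scn8a (adjusted p = 0.0140, 0.003355 and 0.01216). The same genes were called by edgeR in a fit of the 6 control libraries alone (adjusted p = 0.03083, 0.02364 and 0.02022), and without epileptic animal 3 (adjusted p = 0.03394, 0.03416 and 0.03447). Without epileptic animal 1, Scn2a and Scn8a were called (adjusted p = 0.02744 and 0.02775). These epileptic libraries enter the control comparison through the shared estimate of the spread. More identifiers passed in these settings too: 2523 with quality weights and 2375 from the control libraries alone. Without epileptic animal 3 there were 2071 and without epileptic animal 1 there were 1977, against 1248 as reported.

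In epileptic rats the fitted sublayer differences were smaller for each gene, but the change in the difference did not pass a test. Scn1a was 10.3% higher in superficial CA1 (log2 fold change 0.14, SE 0.07, adjusted p = 0.2000), Scn8a 3.55% higher (0.05, SE 0.05, adjusted p = 0.5674) and Scn2a 1.84% higher (0.03, SE 0.05, adjusted p = 0.7730). For Scn3a the log2 fold change was −0.02 (SE 0.05, adjusted p = 0.8833). Scn1a was at 0.0341 without epileptic animal 3 and at 0.20 without animal 1. Scn8a was at 0.00236 without epileptic animal 1 and at 0.0972 without animal 3. The test called 0 of 4 members, against 10.0% of all identifiers, and 0 of 4 reached an unadjusted p below 0.05, against 25.9%. The members' median was 0.04 and that of all identifiers 0.02. The direct test of the change, epileptic minus control, gave −0.04 for Scn1a (95% interval −0.24 to 0.17), −0.12 for Scn2a (−0.26 to 0.02), −0.08 for Scn3a (−0.23 to 0.07) and −0.10 for Scn8a (−0.25 to 0.05). All adjusted p were between 0.8230 and 0.9744. In this test edgeR called 0 of 4 members and 0% of all identifiers, and 0 of 4 against 6.60% lay at an unadjusted p below 0.05. In both comparisons of this paragraph DESeq2 and both limma-voom fits called 0 of 4 as well. Within epileptic rats DESeq2 called 811 identifiers, limma-voom with quality weights 2585 and limma-voom with random effects 838. For the change they called 2, 107 and 0.

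Over control and epileptic animals together, Scn1a, the subunit linked to interneuron firing, was 11.7% higher in superficial than in deep CA1 (log2 fold change 0.16, SE 0.05, adjusted p = 0.02763). The superficial minus deep difference was 0.30, 0.07 and 0.17 on the log2 scale in control animals 1, 2 and 3, while epileptic animals 1, 2 and 3 had 0.02, 0.05 and 0.36. All 6 differences were positive, with control animal 1 and epileptic animal 3 well above the rest. Its call was lost without control animal 1 (0.13, adjusted p = 0.1365), control animal 3 (0.16, adjusted p = 0.07815) or epileptic animal 3 (0.10, adjusted p = 0.07396). It was lost also with DESeq2 (0.15, adjusted p = 0.05102), in limma-voom with animals as random effects (0.16, adjusted p = 0.05951) and without the animal as a block (0.16, adjusted p = 0.4219). Over all alternatives its adjusted p ranged from 0.002755 to 0.4219.

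Scn2a and Scn8a, which serve axons and the axon initial segment of excitatory neurons, were 6.28% and 7.05% higher in superficial CA1 over the 6 animals, without passing (log2 fold change 0.09, SE 0.03, adjusted p = 0.07604, and 0.10, SE 0.04, adjusted p = 0.06100). Scn2a was higher in the superficial library in 6 of 6 animals, by 0.22, 0.08 and 0.15 in control and 0.05, 0.02 and 0.01 in epileptic animals 1, 2 and 3. Scn8a was higher in 5 of 6, by 0.15, 0.19 and 0.09 in control and 0.14 and 0.05 in epileptic animals 1 and 2, with −0.05 in epileptic animal 3. Without that animal Scn8a passed (0.12, adjusted p = 0.01386), among 4093 identifiers called, against 3010 as reported. For Scn3a the differences were 0.03, 0.10 and 0.07 in control and −0.04, −0.04 and 0.03 in epileptic animals, with a fitted log2 fold change of 0.02 (SE 0.04, adjusted p = 0.6827). Over the 6 animals 1 of 4 members was called, against 20.4% of all identifiers, and 3 of 4 lay at an unadjusted p below 0.05, against 33.7%. Scn1a and Scn2a were higher in the superficial library in all 6 animals, as were 11.0% of all identifiers. Limma-voom with sample quality weights called 3 of 4 members and edgeR without a filter on low counts 2 of 4. These settings called 4103 and 3463 identifiers, against 3010 as reported.

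The epilepsy comparison asks what the chronic phase changes within a sublayer, 3 animals against 3. Scn8a, the subunit of the axon initial segment and nodes, had the lowest fitted fold changes of the 4 genes. In deep CA1 its log2 fold change was −0.23 (95% interval −0.44 to −0.01, SE 0.09), a difference of −14.6%, and in superficial CA1 −0.30 (−0.54 to −0.07, SE 0.10), or −19.0%. Neither passed the test (adjusted p = 0.3337 in deep and 0.2066 in superficial CA1). Scn8a was 1 of 4 members with all epileptic libraries below all control libraries, in deep CA1 against 9.75% of all identifiers and in superficial CA1 against 13.0%. The deep and superficial values come from the same animals and are not independent of each other.

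The share of alignments outside annotated exons was 22.3 to 26.7% in epileptic animals 2 and 3. Their Scn8a levels differed from the control mean by −0.45 to −0.23 on the log2 scale. All control libraries had a higher share than these, so its part and that of epilepsy cannot be fully told apart, and a cause was not tested. With that share as a covariate the log2 fold change of Scn8a was −0.13 in deep (adjusted p = 0.7041) and −0.10 in superficial CA1 (adjusted p = 0.9938). In epileptic animal 1, with 43.0% in deep and 37.7% in superficial CA1, within the range of the controls, Scn8a differed from the control mean by −0.12 in each sublayer and lay below each control library. Limma-voom with sample quality weights called Scn8a in deep (−0.31, adjusted p = 0.01617) and superficial CA1 (−0.38, adjusted p = 0.01918), among 2171 and 1789 identifiers called. In superficial CA1 without epileptic animal 1, edgeR called Scn8a (−0.40, adjusted p = 0.02849) among 1443 identifiers. As reported, edgeR called 0 identifiers in deep and 2 in superficial CA1. Over all alternatives its adjusted p ranged from 0.01617 to 0.7328 in deep and from 0.01918 to 0.9938 in superficial CA1.

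Scn1a, Scn2a and Scn3a did not pass in either sublayer, and their intervals were wide. In deep CA1 the log2 fold change was 0.01 for Scn1a (95% interval −0.26 to 0.27, adjusted p = 0.9819), −0.05 for Scn2a (−0.38 to 0.27, adjusted p = 0.9034) and −0.04 for Scn3a (−0.36 to 0.29, adjusted p = 0.9338). In superficial CA1 it was −0.02 for Scn1a (−0.28 to 0.24, adjusted p = 0.9451), −0.16 for Scn2a (−0.51 to 0.19, adjusted p = 0.5793) and −0.11 for Scn3a (−0.39 to 0.18, adjusted p = 0.6615). When the outside-exon share entered the fit, Scn1a, Scn2a and Scn3a had deep values of 0.22, 0.22 and 0.26 and superficial values of 0.15, 0.14 and 0.15, all above 0, and none passed. Without epileptic animal 3, Scn2a had 0.0901 in deep and −0.0189 in superficial CA1, and Scn3a had 0.10 and −0.000962. The epileptic animals did not share a direction behind these means. Scn2a of epileptic animals 1, 2 and 3 differed from the control mean by 0.22, −0.05 and −0.39 in deep and by 0.12, −0.18 and −0.53 in superficial CA1. Scn3a differed by 0.25, −0.08 and −0.36 in deep and by 0.15, −0.18 and −0.39 in superficial CA1. Both genes were thus highest in epileptic animal 1, between in animal 2 and lowest in animal 3. Scn1a differed by 0.25, −0.12 and −0.14 in deep and by 0.09, −0.25 and 0.04 in superficial CA1, an order that was not the same in the sublayers.

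In deep CA1 edgeR called 0 of 4 members and 0% of all identifiers, with 1 of 4 members (Scn8a) at an unadjusted p below 0.05, against 13.7%. With the replicate number as a block, edgeR called 239 identifiers in deep CA1 and still 0 of 4 members. In superficial CA1 edgeR called 0 of 4 members and 0.0140% of all identifiers, and 1 of 4 (Scn8a) lay at an unadjusted p below 0.05, against 18.9%. DESeq2 called 0 of 4 members in both sublayers, while it called 376 identifiers in deep and 885 in superficial CA1. Limma-voom with animals as random effects also called 0 of 4 in both, with 47 and 291 identifiers called. Limma-voom with sample quality weights called 1 of 4 in each, among 2171 identifiers in deep and 1789 in superficial CA1. The members' median log2 fold change was −0.05 in deep and −0.13 in superficial CA1, where the medians of all identifiers were 0.00 and 0.01. TMM holds the latter near 0. Without scaling the median identifier was −0.15 in deep and −0.11 in superficial CA1, and the unscaled values of Scn8a were −0.39 and −0.43. Scaling moves all identifiers of a library together, so the place of Scn8a below the median identifier barely depends on it and is no separate check. The unscaled values of Scn1a were −0.16 and −0.14, close to that median, those of Scn2a −0.24 and −0.30, and those of Scn3a −0.22 and −0.25.

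**Figure D2:**
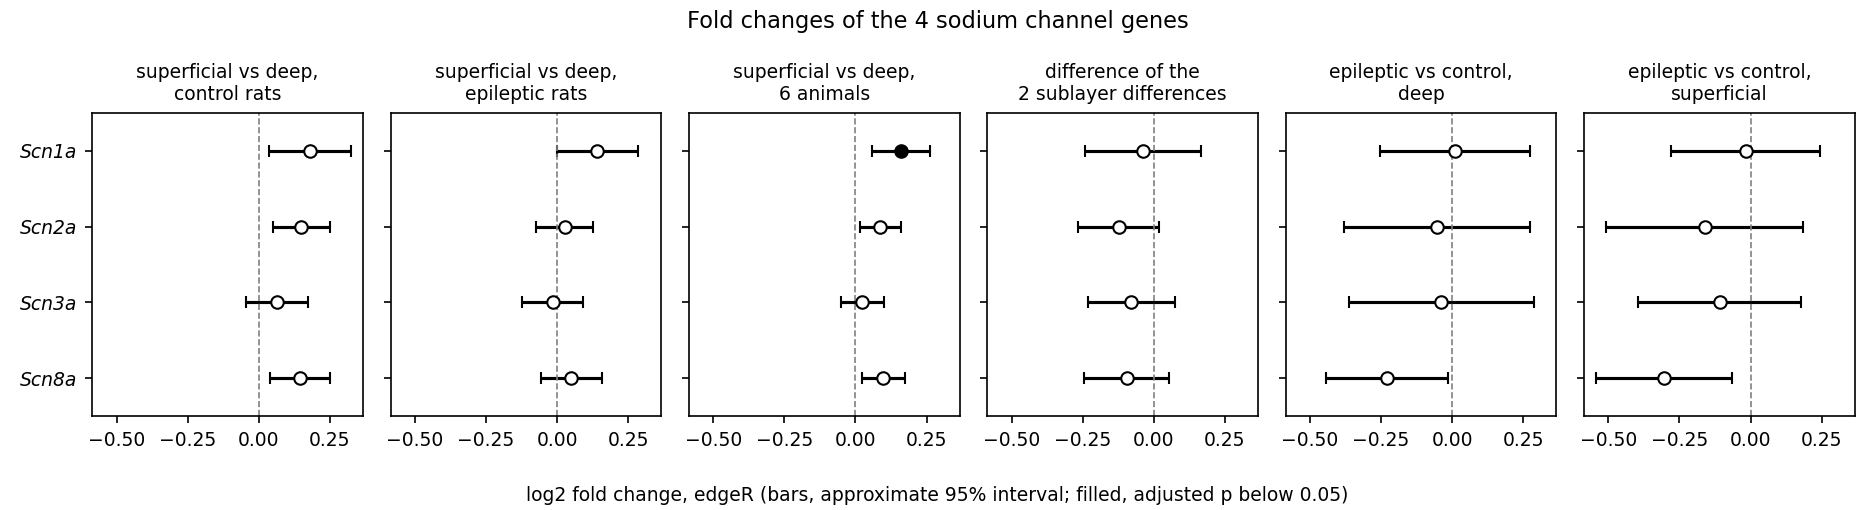
Log2 fold changes of the 4 genes in each comparison, with approximate 95% intervals; a filled point marks an adjusted p below 0.05. Only Scn1a over all 6 animals is filled, at 0.16, and the intervals of the epilepsy comparisons, 3 animals against 3, are wider than those of the sublayer comparisons within animals.

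The epileptic animals were more unlike each other than the control animals. The SD of log2 CPM between control animals was 0.04 to 0.07 in deep and 0.02 to 0.12 in superficial CA1 over the 4 genes, where the median identifier had 0.10 and 0.09. Between epileptic animals Scn2a had 0.31 in the deep and 0.33 in the superficial sublayer, and Scn3a 0.31 and 0.27, where the median identifier had 0.16 and 0.15. Between 81.9 and 88.2% of identifiers varied less than Scn2a and Scn3a among epileptic animals of a sublayer. Scn8a had 0.12 and 0.18 and Scn1a 0.22 and 0.18. By counting error alone, the coefficient of variation of a gene in a library was at most 2.61%.

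Across the 12 libraries, Scn2a and Scn3a, the neighbours on chromosome 3, followed each other closely, with a Pearson r of 0.96 between their log2 CPM. Among 9395 identifiers of a mean log2 CPM of at least 3, Scn2a ranked 15th in likeness to Scn3a, and Scn3a ranked 30th in likeness to Scn2a. Scn8a had an r of 0.61 with Scn2a and 0.60 with Scn3a, and Scn1a had 0.55 with Scn2a, 0.55 with Scn3a and 0.48 with Scn8a. After the group means were taken out, r was 0.96 for Scn2a with Scn3a and 0.52 to 0.67 for the other pairs. The libraries come in pairs from 6 animals and share the scaling, and the epileptic animals 1 and 3 lie at the ends, so these values describe these libraries only. The identifier most like each gene was ENSRNOG00000007733 for Scn2a (r = 0.99), ENSRNOG00000002214 for Scn3a (r = 0.98), ENSRNOG00000033942 for Scn8a (r = 0.98) and ENSRNOG00000004861 for Scn1a (r = 0.90). The median r over all identifiers was 0.08 for Scn1a and 0.19 to 0.22 for the others.

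**Figure D3:**
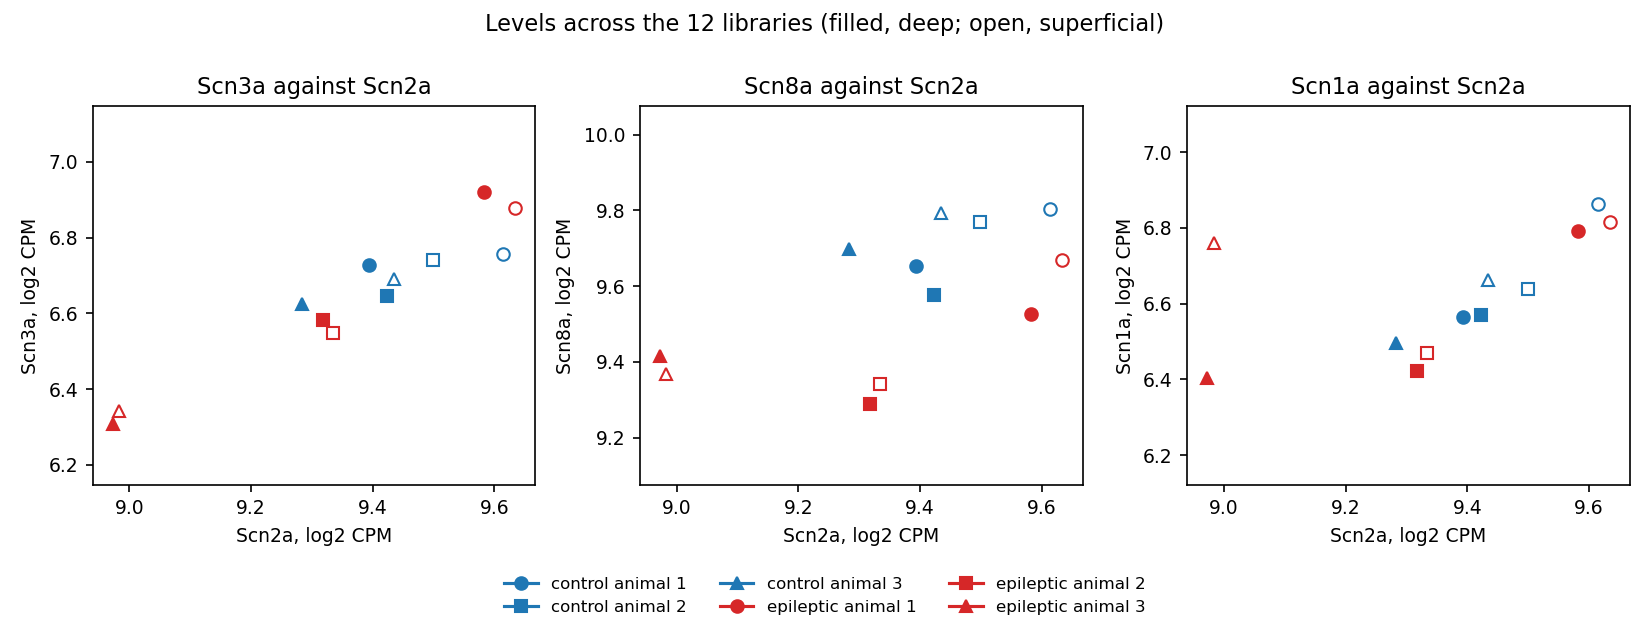
Log2 CPM of Scn3a, Scn8a and Scn1a (vertical axes) against Scn2a (horizontal axes) in the 12 libraries, filled for deep and open for superficial CA1. Scn3a lies close to a line with Scn2a (r = 0.96), while for Scn8a the libraries of epileptic animals 1 and 2 lie below control libraries of like Scn2a level.

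**Figure D4:**
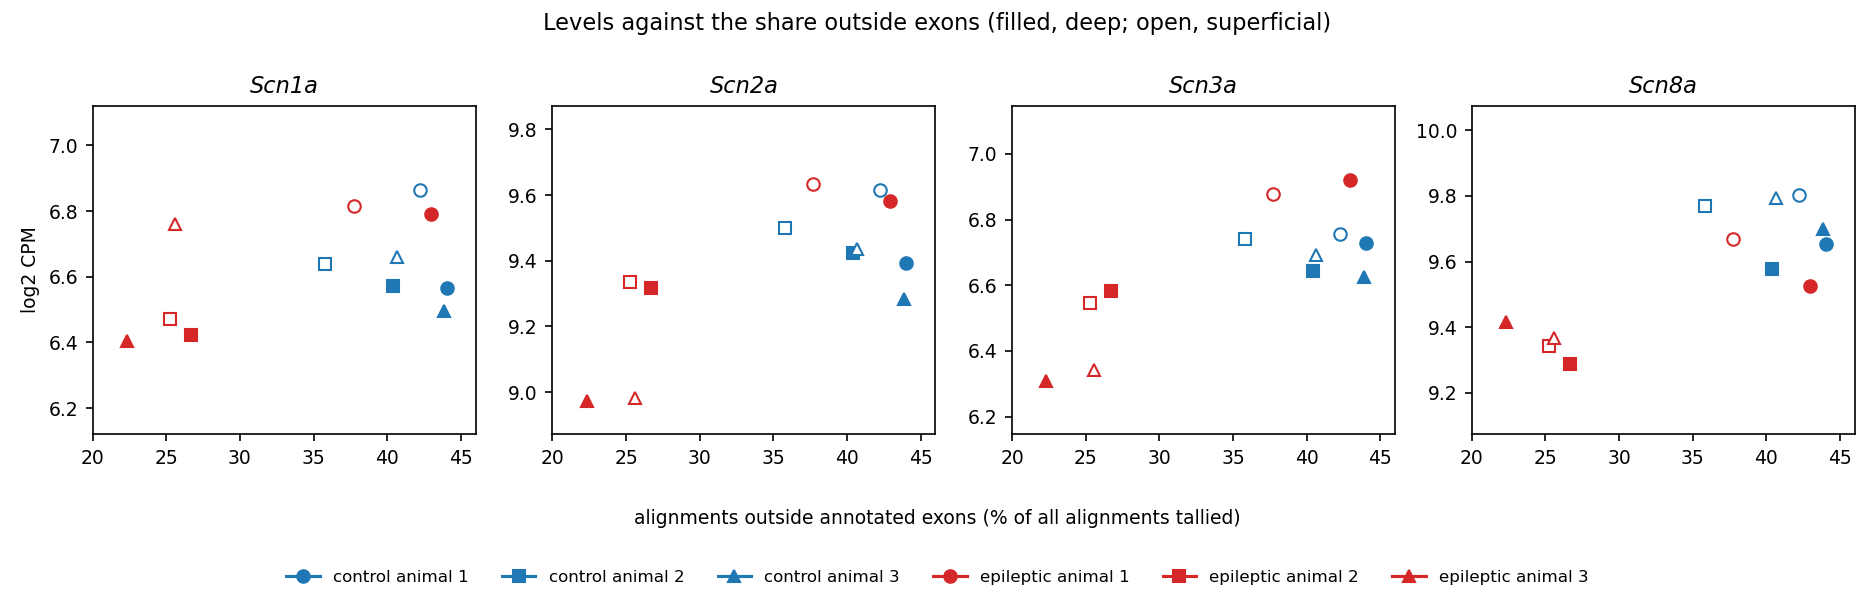
Log2 CPM of each gene against the percent of alignments outside annotated exons, filled for deep and open for superficial libraries. Epileptic animals 2 and 3 lie apart at 22.3 to 26.7%, with Scn8a below the control libraries, and epileptic animal 1 lies among the controls in this share.

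Ratios of counts within a library need no scaling and can be compared between libraries. A ratio of counts is not a ratio of transcripts, since gene lengths were not used, so it does not give the make-up of the subunits. Scn2a had 6.25 to 7.25 counts for each count of Scn3a in all 12 libraries. This ratio was 6.51 ± 0.306 in deep control, 6.91 ± 0.301 in superficial control, 6.45 ± 0.191 in deep epileptic and 6.64 ± 0.345 in superficial epileptic CA1 (SD, n = 3 each), and the groups overlapped. Of the counts of the 4 genes together, Scn8a took 48.3% ± 2.09 in deep and 48.4% ± 1.38 in superficial control libraries and 45.5% ± 4.48 and 45.7% ± 2.66 in the epileptic ones (SD, n = 3 each). In epileptic animals 1 and 2 the deep libraries had shares of 42.5 and 43.3% and the superficial ones 44.3 and 44.0%, below all controls of the sublayer, of which the lowest were 46.4 and 47.0%. In epileptic animal 3 it was 50.6% in deep CA1, level with the highest deep control, and 48.7% in superficial CA1, within it.

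The ratio of Scn2a to Scn8a followed the same split. It was 0.750 to 0.899 in deep and 0.780 to 0.877 in superficial control libraries. The deep libraries of epileptic animals 1 and 2 had 1.04 and 1.02 and their superficial libraries 0.976 and 0.995, above all controls, and epileptic animal 3 had 0.736 and 0.766, below all controls of the sublayer. The exact 95% binomial interval of the Scn8a share in the deep library of epileptic animal 3 was 50.0 to 51.2%, and it covers counting error only. Scn1a took 5.63% ± 0.142 of the summed counts in deep control and 5.77% ± 0.308 in superficial control libraries, and 6.19% ± 0.232 and 6.70% ± 1.12 in the epileptic ones (SD, n = 3 each). The superficial library of epileptic animal 3 had the highest Scn1a share, 7.99%, and the other 11 libraries had 5.49 to 6.38%. For each count of Scn8a there were 0.114 to 0.130 counts of Scn1a in superficial control and 0.137 to 0.164 in superficial epileptic libraries, and 0.109 to 0.124 and 0.124 to 0.150 in deep libraries, where the ranges overlapped. Of the 3 other members, 2 (Scn1a and Scn3a) had a ratio to Scn8a that was higher in each epileptic than in each control library of superficial CA1, as had 40.7% of all identifiers. The ratio of Scn3a was 0.116 to 0.122 in control and 0.123 to 0.144 in epileptic libraries there. In deep CA1 this held for 0 of 3, against 27.6% of all identifiers.

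**Figure D5:**
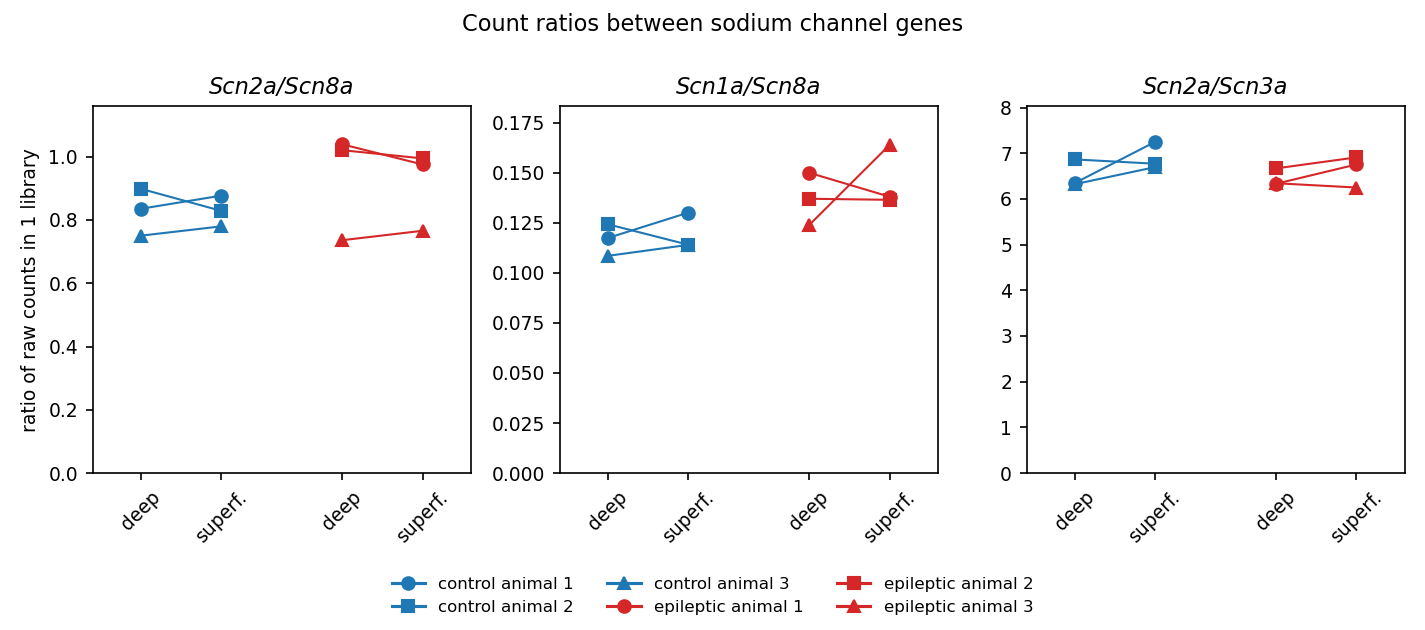
Ratios of raw counts of Scn2a to Scn8a, Scn1a to Scn8a and Scn2a to Scn3a in each library; lines join the sublayers of 1 animal. The Scn2a to Scn8a ratio of epileptic animals 1 and 2 lies above the controls and that of animal 3 at 0.736 and 0.766, while the Scn2a to Scn3a ratio stays between 6.25 and 7.25.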

How the data were processed

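The deposited values are raw read counts per Ensembl gene identifier in 1 table per library, followed by 5 summary tallies, which entered no library size and no test. Per the submitters' processing notes, the tools were HTSeq 0.6.1, STAR 2.5.0c, SAMtools 0.1.19 and FastQC 0.11.3, on Rnor_6.0. The sources used here do not say whether counting used strand, and reads of overlapping or antisense genes, and of stretches shared by these related genes, may not be told apart.

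The analysis ran in R 4.3.3 and edgeR 4.0.16 (filterByExpr with minimum count 10 and minimum total 15, TMM, robust quasi-likelihood test, Benjamini-Hochberg adjustment over all 14791, 14261 or 14321 identifiers tested, threshold 0.05). All 4 members passed the filter in each fit. The sublayer tests used all 12 libraries with a term per animal, and the epilepsy tests the 6 libraries of a sublayer. Libraries of 1 condition and replicate number were treated as 1 animal: deviations of its deep and superficial libraries from the group means correlated at 0.458 to 0.785. Control and epileptic libraries of 1 number correlated at 0.206 to 0.372 in deep CA1. In superficial CA1 they correlated at 0.309, −0.0313 and 0.220 for numbers 1, 2 and 3. The SE is the absolute log2 fold change over the square root of F, and intervals built on it are approximate. log2 CPM used a prior count of 2. No replicates were duplicates. The sublayer test over all animals and both epilepsy tests were also run on simulated counts with planted changes. These counts held no effect of the animal and 1 spread per identifier for both conditions. The simulation therefore does not cover the wider spread between epileptic animals, and its outcome is not used here. DESeq2 1.42.0 and limma 3.58.1 gave alternatives.

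Named identifiers are the 4 members and, for likeness, the 1 identifier of highest r for each. The members, lists and tests were chosen with earlier results of these data known. Lists of beta subunits, other alpha subunits, channel partners and cell type markers were not analysed here, because 0 identifiers could be paired with a symbol.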

Additional observations from a re-analysis of the deposited data

How the results depend on the processing

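Of 328 values of the 4 genes under alternatives, 284 kept their direction and their side of the threshold and 17 turned direction, all of them for values that did not pass; the cause was not tested. The number of members called rose from 0 to 3 in control rats with no filter on low counts, with sample quality weights and from the control libraries alone. These settings called 1910, 2523 and 2375 identifiers, against 1248 as reported. The number of members called was 0 to 3 without 1 animal. Over all 6 animals it went from 1 to 2 with no filter and to 3 with quality weights, and was 0 to 1 without 1 animal. It went to 0 with DESeq2, with animals as random effects and with no replicate block. These last 3 settings called 1930, 2593 and 265 identifiers, against 3010 as reported. Epilepsy gave 1 in each sublayer with quality weights, and 0 to 1 without 1 library in superficial CA1. In the epilepsy comparisons the replicate block changed no call of a member.

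Scn1a turned in deep CA1 with the replicate block (−0.00149), quality weights (−0.0868) and the random effect (−0.00444), and ranged from −0.12 to 0.0766 without 1 library. In superficial CA1 it ranged from −0.0717 to 0.0830 without 1 library, above 0 without control animal 1 (0.06) or epileptic animal 2. With the outside-exon share as covariate, Scn1a went from 0.01 to 0.22, and Scn2a and Scn3a turned to 0.22 and 0.26, in deep, and Scn1a, Scn2a and Scn3a to 0.15, 0.14 and 0.15 in superficial CA1. Without 1 library, Scn2a ranged from −0.20 to 0.0901 and Scn3a from −0.20 to 0.10 in deep CA1, above 0 without epileptic animal 3. The change of the sublayer difference of Scn1a ranged from −0.14 to 0.0250 without 1 animal, above 0 without control animal 1 or epileptic animal 1 or 2.

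Over all identifiers, calls ranged over the alternatives from 5 to 2523 in control rats (1248 as reported), 5 to 2585 in epileptic rats (1484), 265 to 4103 over all animals (3010), 0 to 178 for the change (0), 0 to 2171 in deep (0) and 0 to 1789 in superficial CA1 (2). Of 80 mean levels under alternatives, 19 moved by over 1 SD, mostly where the most abundant identifiers were removed, which raises all CPM. The rest of the 19 came from unscaled library sizes. Leaving out 1 of 3 animals cannot move a mean by over 1 SD. The levels without 1 animal, which are most of the 80, could therefore not move by so much and are no check. The same holds for the 48 mean shares of the summed counts, taken only without 1 animal. With 3 animals a group, the widest intervals reached about 0.5 on the log2 scale.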
